A study of Mus musculus with 3 samples.

Results

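Cholesterol synthesis, uptake and efflux genes were followed in lower-limb skeletal muscle of mFoxO1KO mice and of control mice. The 29 genes were chosen by name, through the accession that each probe of the array carries, and comprise 4 SREBP2 regulators, 16 enzymes of sterol synthesis, 1 gene of receptor degradation (Mylip), 4 genes of sterol trafficking and storage, 2 efflux transporters and 2 LXR receptors. All 29 were found, on 40 of the 39429 probes that were not controls, and 28 of them were bright enough to be among the 17460 genes tested. In mFoxO1KO mice the transcription factor gene Foxo1 had been deleted inducibly and only in skeletal muscle, and the control mice are labelled as having had no such treatment. Mice of both genotypes were C57BL/6 males and ate an AIN93G diet with doxycycline (0.625 g/kg) between 8 and 14 weeks of age, so the controls had the drug too. There were 3 biological replicates of each genotype, and 0.2 µg of total RNA of each was labelled. The promoter that drives the deletion, the age at sampling and the muscles that were taken are not given in the sources used here.

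Each of the 3 arrays held 1 knockout sample in Cy5 and 1 control sample in Cy3, and no array had the dyes swapped. A dye effect of a single probe and an effect of genotype therefore cannot be told apart in any value below. Between 57.0% and 57.9% of spots were well above background in the knockout channel and between 53.1% and 56.9% in the control channel, and 0 spots were saturated. All 10 skeletal muscle markers (Acta1, Ckm, Actn3 and others) were well above background in every control sample. Foxo1 was at 23.9% of its control level, with a log2 ratio of knockout over control of -2.06 ± 0.49 (SD, n = 3; adjusted p = 0.0278 in limma). Its other probe had -1.39 ± 0.61, and without replicate 2 the adjusted p was 0.103. Whether its probes lie in the deleted part is not known here. Other transcripts differed between samples too. The summed intensity of 7 hepatocyte markers was 1333, 7278 and 1879 in the knockout samples of arrays 1, 2 and 3, against 1362, 2221 and 2659 in the control samples, so the knockout sample of array 2 stood apart. Myh2, a fast-fibre myosin gene, had log2 ratios of -1.69, -0.34 and 1.36. The part of these differences in the values below was not tested. Over all genes tested, 481 (2.75%) passed an adjusted p of 0.05 in limma, 359 of them higher (2.06%) and 122 lower (0.699%). With median centring in place of loess the split was 1154 higher and 51 lower, and without replicate 2 it was 47 higher and 3 lower.

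Cells take cholesterol from lipoproteins or build it from acetyl-CoA through mevalonate, squalene and lanosterol. When sterol in the endoplasmic reticulum is low, the escort protein Scap carries SREBP2, the product of Srebf2, to the Golgi, where it is cleaved and released to switch on the synthesis genes, while Insig proteins hold the complex back when sterol is plentiful. When sterol accumulates, its oxidised forms activate the LXR receptors, which switch on the export pumps Abca1 and Abcg1 and the ubiquitin ligase Mylip, which marks lipoprotein receptors for breakdown. Skeletal muscle makes some of its own cholesterol, and the early part of the pathway also supplies it with ubiquinone and isoprenoid anchors.

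Promoter windows were searched for letters through which this control is known to act, and for a FoxO motif. RefSeq sequences (build GRCm38.p6), each running over 250 bases before and 50 after a gene's start, were found for 23 of the 29 genes, in 30 windows. The sterol regulatory element letters TCACNCCAC, on either strand, were present in the window of 1 of the 23 genes, Hmgcs1, and in 1.24% of all 32851 windows. The box CCAAT, bound by NF-Y, which works beside SREBP at many sterol promoters, was present in 18 of the 30 windows and in 37.4% of all windows. The FoxO motif GTAAACA was present in none of the 30 windows and in 3.65% of all windows, and the LXR direct repeat, 2 copies of AGGTCA in 1 direction with 4 bases between them, in none of the 30 and in 0.0152% of all. No motif overlapped another in the sequences printed, and a match or its absence describes only these letters in these windows. The 200 bases upstream of the start are shown for Pmvk, the enzyme gene with the highest ratio, for Idi1, that with the lowest, and for Hmgcs1, which holds the sterol regulatory element. Capitals mark that element and the CCAAT boxes, which read ATTGG when on the other strand. They lie at chr3:89454341-89454540, plus strand (1 of 2 starts listed), chr13:8885406-8885605, plus strand, and chr13:119690151-119690350, plus strand.
Pmvk: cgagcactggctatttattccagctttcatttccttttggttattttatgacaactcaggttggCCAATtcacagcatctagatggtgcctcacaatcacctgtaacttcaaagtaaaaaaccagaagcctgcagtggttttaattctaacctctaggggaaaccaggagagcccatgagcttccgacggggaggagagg
Idi1: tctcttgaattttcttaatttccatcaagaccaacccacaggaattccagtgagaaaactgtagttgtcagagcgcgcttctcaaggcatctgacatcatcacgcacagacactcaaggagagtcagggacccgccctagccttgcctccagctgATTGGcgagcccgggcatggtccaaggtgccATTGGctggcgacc
Hmgcs1: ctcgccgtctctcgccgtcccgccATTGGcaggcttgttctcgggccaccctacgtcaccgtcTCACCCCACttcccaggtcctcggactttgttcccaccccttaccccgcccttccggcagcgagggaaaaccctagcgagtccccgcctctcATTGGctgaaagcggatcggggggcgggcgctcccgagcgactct

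No cholesterol gene passed the test between the genotypes. In limma 0 of 28 had an adjusted p under 0.05, against 2.75% of all genes tested, and the smallest adjusted p was 0.0662, that of Pmvk. Without adjustment, 10 of the 28 had a p under 0.05, against 26.8% of all genes. Of these, 9 were higher in knockout muscle (32.1%, against 15.3% of all genes) and 1 was lower (3.57%, against 11.5%). The 9 include Sqle, which was well above background on all 3 arrays in the knockout channel only. With both channels required above background, 27 genes were tested. Of those 27, 9 had an unadjusted p under 0.05 in either direction, against 4345 of all 16311 genes. In whole muscle, fewer cells of a type and less RNA per cell cannot be told apart. The 28 mean log2 ratios of knockout over control ran between -0.30 and 0.39, with a median of 0.08 beside 0.01 for all genes, and 20 of them were above 0 (71.4%, against 51.8% of all genes). These shares are descriptions, since the genes share pathways and samples and were chosen with earlier results of these data known. For 25 of the 28 the 95% interval of the mean ratio stayed within 1.5-fold either way, as it did for 88.4% of all genes. The exceptions were Mylip, Abcg1 and Nr1h3. Without replicate 2, which holds the knockout sample that stood apart, 0 of 28 passed, against 0.286% of all genes. There 5 of the 28 had an unadjusted p under 0.05, against 2714 of all 17460 genes. The median was then 0.10, beside 0.01 for all genes.

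**Figure D1:**
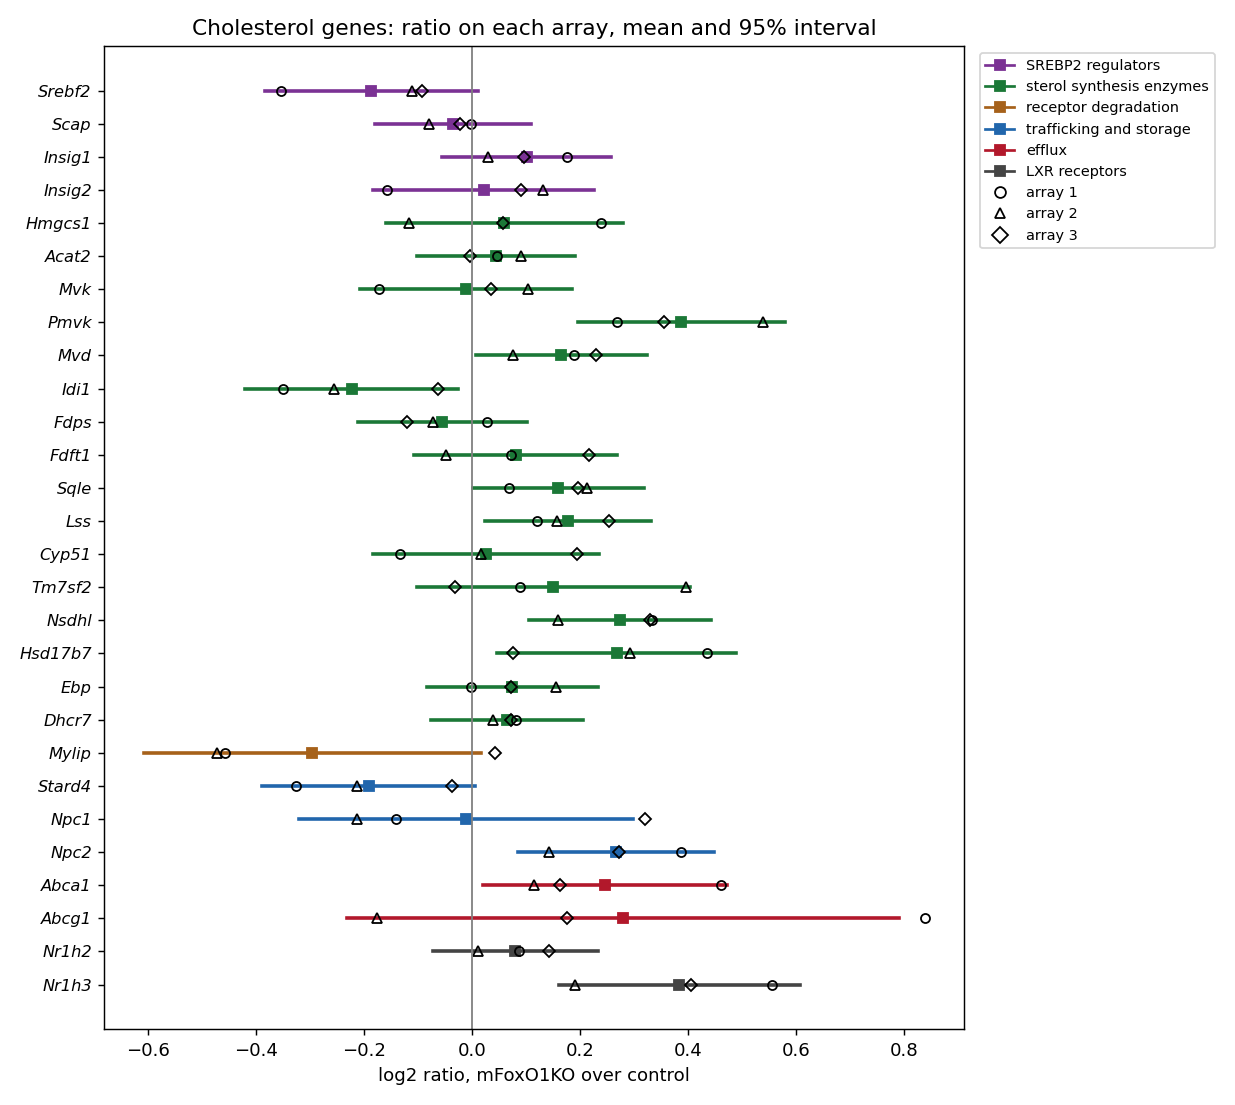
Log2 ratio of mFoxO1KO over control (x axis) for the 28 cholesterol genes tested (rows), with open symbols for arrays 1 to 3, squares for their mean and bars for the 95% interval from limma, coloured by role. Pmvk and Nr1h3 have the highest means (0.39 and 0.38) and Mylip the lowest (-0.30), and the symbols of Abcg1 spread the most.

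None of the 4 SREBP2 regulators passed, and their mean log2 ratios ran between -0.19 and 0.10. Srebf2, the gene of the factor itself, had log2 intensities of 6.77, 6.74 and 6.83 in knockout muscle, against 7.13, 6.85 and 6.93 in control muscle (values in this order are those of arrays 1, 2 and 3 throughout). The 3 knockout levels lay just under the 3 control levels, and the mean log2 ratio was -0.19 ± 0.15 (SD, n = 3; limma, adjusted p = 0.201), or -0.10 without replicate 1. The second Srebf2 probe was well above background in only 1 control sample and had -0.04. Scap, the escort protein gene, had -0.04 ± 0.04, with levels of 11.49, 11.37 and 11.52 in knockout muscle, against 11.50, 11.45 and 11.54 in control muscle. Of the retention protein genes, Insig1, itself a well-known SREBP2 target, had 0.10 ± 0.07 (adjusted p = 0.339). Insig2, its partner in holding Scap, had 0.02 ± 0.16 (adjusted p = 0.889), and its second probe -0.17.

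In the early section of sterol synthesis, the steps that build and join isoprene units, Pmvk stood highest and Idi1 lowest. Pmvk encodes phosphomevalonate kinase, which adds the second phosphate to mevalonate. Its log2 intensities were 11.31, 11.46 and 11.51 in knockout muscle, against 11.04, 10.92 and 11.15 in control muscle. The groups did not overlap, and the mean log2 ratio was 0.39 ± 0.14 (SD, n = 3), or 1.31-fold, with a 95% interval of 0.20 to 0.58 (limma, adjusted p = 0.0662). The second Pmvk probe gave 0.39 ± 0.15, and the arrays 0.23, 0.53 and 0.40. With median centring only, which raised the median of all genes to 0.16, Pmvk had 0.60 and passed (adjusted p = 0.0196). Without 1 replicate each, it had 0.31 to 0.45 and did not pass (adjusted p of 0.0693 to 0.253).

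Idi1, which encodes the isomerase that makes dimethylallyl diphosphate, had levels of 9.23, 9.11 and 9.26 in knockout muscle, against 9.58, 9.36 and 9.32 in control muscle. All 3 knockout levels lay below the control levels. Its mean log2 ratio was -0.22 ± 0.15 (adjusted p = 0.155). It was the 1 gene of the 28 with an unadjusted p under 0.05 in that direction, and it lies 2 steps after Pmvk in the pathway. Mvd, whose enzyme catalyses the step between them, had 0.16 ± 0.08 (adjusted p = 0.176).

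The other genes of this section had means nearer to 0. Hmgcs1, which makes the substrate of the committed step and carries the sterol regulatory element shown above, had 0.24, -0.12 and 0.06 on the 3 arrays (adjusted p = 0.687). Acat2, which joins 2 acetyl-CoA molecules, had 0.04 ± 0.05, and Mvk, the mevalonate kinase gene, -0.01 ± 0.14, with 0.10 for its second probe. Fdps, which makes farnesyl diphosphate, the branch point to ubiquinone and protein prenylation, had -0.06 ± 0.08. Fdft1, squalene synthase, which commits farnesyl diphosphate to sterols, had 0.08 ± 0.13. None of these ratios had 1 sign on all arrays.

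From squalene onward, the 8 remaining enzyme genes all had means above 0, against 51.8% of all genes, and none passed. The ratios of Cyp51, Tm7sf2 and Ebp did not have 1 sign on all arrays. Sqle, the squalene monooxygenase gene, had 6.76, 6.89 and 6.79 in knockout muscle, against 6.69, 6.68 and 6.59 in control muscle. Lss, which closes the ring to lanosterol, had 6.91, 6.99 and 7.03 in knockout muscle, against 6.79, 6.84 and 6.78 in control muscle. For both genes the knockout levels lay above the control levels by little, with mean log2 ratios of 0.16 ± 0.08 and 0.18 ± 0.07 (adjusted p of 0.184 and 0.152). Sqle was kept for the test through its knockout channel only, the one in which it was higher. Its direction is therefore no independent support.

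Nsdhl and Hsd17b7 encode partners in the removal of the methyl groups at carbon 4 of the ring. Msmo1 and Erg28, of the further list, belong to the same step and had means below 0. These were -0.15 ± 0.20 and -0.24 ± 0.16 (limma, adjusted p of 0.340 and 0.146). Nsdhl had 7.69, 7.61 and 7.83 in knockout muscle, against 7.36, 7.45 and 7.50 in control muscle, without overlap. Its mean ratio was 0.27 ± 0.10 (SD, n = 3), or 1.21-fold (limma, adjusted p = 0.0902). The second Nsdhl probe, not well above background in any channel, had 0.10, with levels that overlapped. Hsd17b7 had ratios of 0.43, 0.29 and 0.08 (adjusted p = 0.141), and 0.53, 0.23 and 0.01 on its second probe. Its levels in the genotypes overlapped, as the control sample of array 3 was the highest control at 9.01, against 8.81 for the lowest knockout sample. Of the rest, Cyp51, which removes the methyl group at carbon 14, had 0.03 ± 0.16, and Tm7sf2, a sterol reductase gene, 0.15 ± 0.22, with 0.40 on array 2 and a mean of 0.03 without it. Ebp, a sterol isomerase gene, had 0.07 ± 0.08 and Dhcr7, the last reductase of the pathway, 0.06 ± 0.02. Over the 16 synthesis enzymes 13 means were above 0, against 51.8% of all genes. The median was 0.08, and the medians on the 3 arrays were 0.08, 0.10 and 0.07.

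Of the 28 genes tested, 8 were dim, with mean log2 intensities under 7.41, the 25th percentile of all genes. They were Srebf2, Insig1, Acat2, Sqle, Lss, Cyp51, Dhcr7 and Stard4. The offset of 50 added to each signal draws the ratio of such dim probes towards 0. With an offset of 16, Sqle had 0.24, Lss 0.25, Srebf2 -0.27, Insig1 0.13, Acat2 0.06 and Cyp51 0.03. The software's own processed signals carry no such offset but were also corrected for background and dye in another way. The part of the offset in their ratios was not tested. With these signals, Sqle had 0.54 (adjusted p = 0.185), Lss 0.41 (0.100), Stard4 -0.44 (0.139), Srebf2 -0.36 (0.194) and Dhcr7 -0.12 (0.554). Likewise, Cyp51 had 0.26 (0.267), Acat2 0.20 (0.345) and Insig1 0.20 (0.426). None of these passed either, and Dhcr7 turned its direction. Sqle was the 1 tested gene not above background in all 6 channels, as 1 control sample fell short.

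Mylip, whose ubiquitin ligase marks lipoprotein receptors for breakdown and which LXR receptors induce, had the lowest mean of the 28. Its levels were 10.56, 10.51 and 10.64 in knockout muscle, against 11.02, 10.98 and 10.59 in control muscle. The knockout samples lay close together, while the control sample of array 3 stood with them. The log2 ratios were -0.46, -0.47 and 0.04, with a mean of -0.30 ± 0.29 (SD, n = 3; limma, adjusted p = 0.201), and without replicate 3 the mean was -0.47 (adjusted p = 0.0839). The second, dim Mylip probe had 0.00 ± 0.07.

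Within trafficking and storage, the lysosomal pair Npc1 and Npc2, whose proteins hand cholesterol on out of the lysosome, had mean log2 ratios of -0.01 and 0.27. Npc2 had 10.51, 10.23 and 10.38 in knockout muscle, against 10.12, 10.09 and 10.11 in control muscle. The control levels were nearly equal and all 3 knockout levels were above them. The mean ratio of Npc2 was 0.27 ± 0.12 (SD, n = 3), or 1.20-fold (limma, adjusted p = 0.103). Npc1 had ratios of -0.14, -0.21 and 0.32 (adjusted p = 0.961). Stard4, which carries sterol through the cytosol and is an SREBP2 target, had -0.33, -0.21 and -0.04 (adjusted p = 0.194). The second Stard4 probe, not well above background in any channel, had 0.08. Soat1, which esterifies cholesterol for storage, was not well above background in any of the 6 channels and was not tested.

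**Figure D2:**
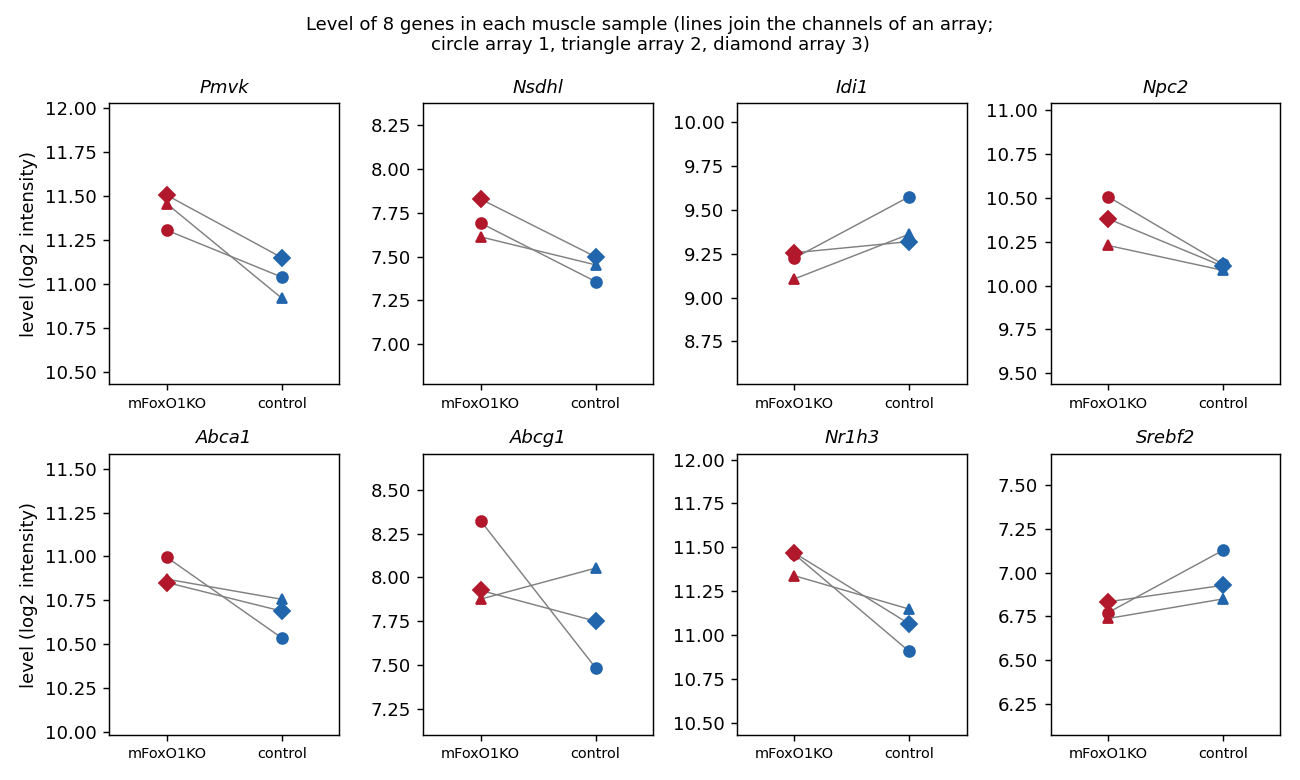
Log2 intensity (y axis, each panel spanning the same range) of 8 cholesterol genes in the mFoxO1KO sample and the control sample of each array, joined by a line. The 3 knockout levels are above the 3 control levels for Pmvk, Nsdhl, Npc2, Abca1 and Nr1h3, below them for Idi1 and Srebf2, and overlap them for Abcg1.

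The LXR receptor gene Nr1h3 had the second highest ratio of the 28. Nr1h3 encodes LXRα, the form that is rich in liver, fat and macrophages. Its log2 intensities were 11.46, 11.34 and 11.47 in knockout muscle, against 10.91, 11.15 and 11.06 in control muscle, without overlap. The mean log2 ratio was 0.38 ± 0.18 (SD, n = 3), or 1.30-fold, with a 95% interval of 0.16 to 0.61 (limma, adjusted p = 0.0836). Its second probe followed it with 0.59, 0.20 and 0.41. With median centring only Nr1h3 had 0.60 and passed (adjusted p = 0.0440), against a median of 0.16 for all genes. Without 1 replicate each, it had 0.30 to 0.48 and did not pass (adjusted p of 0.142 to 0.178). Nr1h2, the gene of the widespread form LXRβ, had 0.08 ± 0.07 (adjusted p = 0.430). The difference between the receptors was not tested.

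Both efflux transporter genes had means above 0 with a wide spread. Abca1, which loads cholesterol onto lipid-poor apolipoproteins, had 11.00, 10.87 and 10.85 in knockout muscle, against 10.54, 10.76 and 10.69 in control muscle. The knockout levels lay above the control levels, and the ratios were 0.46, 0.12 and 0.16 (mean 0.25 ± 0.19, or 1.19-fold, adjusted p = 0.164). Without replicate 1 its mean was 0.14 (adjusted p = 0.302). Abcg1, which passes cholesterol to formed lipoprotein particles, had 8.32, 7.88 and 7.93 in knockout muscle, against 7.49, 8.05 and 7.75 in control muscle. The highest level was in the knockout sample and the lowest in the control sample of array 1, and the groups overlapped through array 2. Its ratios were 0.84, -0.18 and 0.18, and their mean of 0.28 ± 0.52 (SD, n = 3; limma, adjusted p = 0.409) rested on array 1, since without replicate 1 it was 0.00 (adjusted p = 0.998).

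Across the 28 genes, 11 had knockout and control levels that did not overlap, against 25.8% of all genes. Of the 11, 8 had knockout above (28.6%, against 14% of all genes) and 3 had knockout below (10.7%, against 11.8%). A ratio of 1 sign on all 3 arrays was seen for 16, beside 52.4% of all genes, with 12 above 0 (42.9%, against 27.9%) and 4 below 0 (14.3%, against 24.5%). Sqle, tested through its knockout channel only, is among those with knockout above and those above 0 on all arrays. The 8 genes with 2 probes above the filter showed how far a probe could move a value. Pmvk, Nr1h3, Hsd17b7 and Tm7sf2 differed by at most 0.02 between their probes, whereas Srebf2, Insig2, Mvk and Mylip differed by 0.11 or more.

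Fat-cell transcripts differed between the arrays. Of the 28 cholesterol genes, 11 had their highest ratio on array 1 (39.3%, against 39.9% of all genes) and 14 their lowest on array 2 (50%, against 32.3%). Both held for 9 of them (32.1%, against 18.7%), which were Scap, Insig1, Hmgcs1, Nsdhl, Dhcr7, Npc2, Abca1, Abcg1 and Nr1h3. Of the other LXR-linked genes, Nr1h2 was highest on array 3 with 0.14, and so was Mylip with 0.04. Of 13 adipocyte markers 11 were tested, and their median log2 ratio was 2.93, 0.22 and 1.87 on arrays 1, 2 and 3. The summed linear intensity of all 13 was between 114390 and 238696 in knockout samples, against 43578 to 102599 in control samples. The least difference was on array 2 (114390 against 102599). Leptin (Lep) was not well above background in any channel, while Fabp4, Cfd and Cidec were the brightest. The control levels of Npc1, Abca1, Abcg1, Nr1h2 and Nr1h3 had the order of the adipocyte sum, lowest in array 1 and highest in array 2 (17.9% of the 28, against 17.8% of all genes). Abcg1 was the 1 gene of the 28 whose knockout levels also had the order of that sum (3.57%, against 1.9%). All 11 mean ratios of the adipocyte markers were above 0, against 51.8% of all genes, and none passed the test. The part of fat cells in these ratios was not tested.

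Macrophage markers ran differently over the arrays. Of 13 listed, 10 were tested, and their median log2 ratio was -0.05, 0.48 and 0.54. The summed intensity of the 12 with a probe was 8168, 10608 and 8372 in knockout samples, against 7464, 8934 and 7142 in control samples. Itgam, Csf1r and C1qc were the brightest. Itgam weighed most in the sum, with ratios of 0.40, 0.11 and -0.02, while its dimmer probes had means of -0.21 and -0.11. Cd14, which rose by 0.95 ± 0.31 (limma, adjusted p = 0.0453), was the 1 that passed. Cd163 and Fcgr1 were too dim to be tested, and the accession of no probe matched Cd68. The part of macrophages in the cholesterol genes' ratios was not tested.

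**Figure D3:**
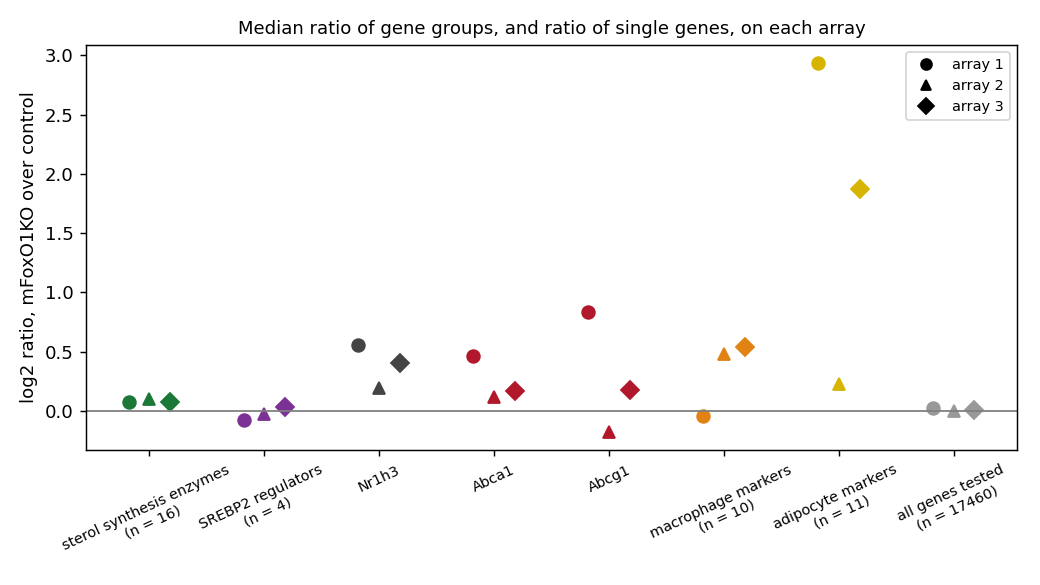
Log2 ratio of mFoxO1KO over control (y axis) on arrays 1 to 3 (symbols), as the median of a gene group with n genes or as the value of a single gene. The adipocyte medians range between 0.22 and 2.93 and the single gene Abcg1 between -0.18 and 0.84. The median of a group does not show how its genes differ, as with the enzyme gene Hmgcs1 at 0.24, -0.12 and 0.06.

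Further genes of sterol handling came from a list of 35, of which 33 were tested. The list was chosen with earlier results of these data known, so its shares are descriptions. In limma 2 rose (6.06%, against 2.06% of all genes) and none fell. At an unadjusted p under 0.05, 7 were higher (21.2%, against 15.3%) and 4 lower (12.1%, against 11.5%), with a median of 0.01 beside 0.01 for all genes. Nceh1 encodes a hydrolase that frees cholesterol from its stored esters. Its log2 intensities were 10.15, 9.79 and 9.36 in knockout muscle, against 8.96, 8.86 and 8.81 in control muscle, so that every knockout sample was above every control sample. It rose by 0.89 ± 0.32 (SD, n = 3), or 1.86-fold (adjusted p = 0.0490). Gramd1b encodes a protein that moves cholesterol between the plasma membrane and the endoplasmic reticulum. It had 8.48, 8.47 and 8.79 in knockout muscle, against 7.84, 8.00 and 7.94 in control muscle, again without overlap, and rose by 0.65 ± 0.19 (adjusted p = 0.0475). Of 15 alternatives, Gramd1b kept its call in 8 and Nceh1 in 7. Gramd1b lost it without any one of the 3 replicates (adjusted p of 0.0652 to 0.130) and Nceh1 without replicate 1 or 2 (0.0532 and 0.181). Both also lost it with offset 16, processed signals, deposited log ratios or both channels above background. Nceh1, but not Gramd1b, lost it with the mean of probes and without the replicate block too.

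The next smallest p-values belonged to Vldlr and Ggps1. Vldlr encodes a lipoprotein receptor of muscle and fat that is a known target of the Mylip ligase. It had 13.98, 14.07 and 14.01 in knockout muscle, against 14.75, 14.72 and 14.38 in control muscle, with a mean log2 ratio of -0.60 ± 0.20 (adjusted p = 0.0505), and its other probe had -0.26. With every probe tested on its own, Vldlr passed (adjusted p = 0.0491). Ggps1, which makes geranylgeranyl diphosphate for protein prenylation, had -0.31, -0.30 and -0.32 (adjusted p = 0.0576), but its second probe had 0.02.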

How the data were processed

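RNA of 3 knockout and 3 control muscle samples was measured on 3 Agilent 2-colour arrays of 1 slide. The deposited files give, per the file headers, the median intensity of each of 44397 spots and of its local background as scanned, and intensities processed by Agilent Feature Extraction 11.5.1.1 (the submitters' processing notes name 9.3.2.1). The deposited log10 ratio of processed Cy5 over Cy3 served as an alternative.

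Background was corrected by normexp (offset 50) and dye by loess within each array (limma 3.58.1, R 4.3.3), giving control spots a weight of 0. Between 281 and 319 outlier spots per array were left out. A probe was kept if well above background in the same channel on all 3 arrays (at least a 0.5 share of its spots), and the brightest probe stood for a gene. Of 39429 probes, 27508 (69.8%) took a symbol through their accession from the RefSeq table of GRCm38.p6. The files name an older build, so the coordinates given, those of the promoter windows, are RefSeq's. Log2 ratios were tested against 0 with lmFit and eBayes (two-sided), adjusted by Benjamini-Hochberg over all genes. Levels by sample are log2 intensities after quantile normalisation of the arrays' average intensity. The array pairs the channels. The number of arrays limits the precision.

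The cholesterol genes and lists were chosen with earlier results of these data known. The rule for naming was all 29 genes, Foxo1, the other sterol genes past the threshold and the 4 of smallest p, and the 3 brightest of each marker list described. Lep, Cd14, Cd163, Fcgr1, Cd68 and Myh2 were named outside that rule, after their values were seen. Of the other marker lists, 0 of 8 endothelial and 0 of 2 tested hepatocyte markers passed, and 1 of 10 muscle markers.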

Additional observations from a re-analysis of the deposited data

How the results depend on the processing

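With the scaling by median centring only, 2 cholesterol genes passed (Pmvk and Nr1h3) and their group median was 0.22, beside 0.16 for all genes. It was 0.12 with the processed signals and with the deposited log ratios, and 0.064 to 0.10 without 1 replicate each. Under each of the other 14 alternatives 0 cholesterol genes passed, with 5 to 14 at an unadjusted p under 0.05. The 5 came without replicate 2, where 2714 of all 17460 genes had such a p. The 14 came without the filter, with 29 cholesterol genes tested, where 6653 of all 32371 genes did. The count over all genes was 245 with offset 16, 200 with the processed signals and with the deposited log ratios, 1205 with median centring, 842 with arrays scaled, 747 without the filter, 55 with both channels above background, and 50 to 434 without 1 replicate each. Without the replicate block it was 216, and 1 of the other sterol genes passed. Of those other sterol genes, 0 passed with offset 16, processed signals, deposited log ratios or both channels above background, 1 with the mean of probes, and 0 to 2 without 1 replicate each. With median centring 3 were higher, and with arrays scaled, without the filter, with every probe on its own or with trend and robust settings 2 were higher and 1 lower. Some ratios not past the threshold changed sign. With median centring Scap had 0.18, Mvk 0.19, Fdps 0.16 and Npc1 0.20. With the mean of probes Insig2 had -0.076 and Mvk 0.046. With arrays scaled Mvk had 0.0038 and Npc1 0.0019, and without background subtraction Mvk had 0.0013. With the processed signals and the deposited log ratios Dhcr7 had -0.12. Without 1 replicate each, Insig2 ran between -0.034 and 0.11, Hmgcs1 between -0.030 and 0.15, Mvk between -0.069 and 0.069, Cyp51 between -0.059 and 0.11, Npc1 between -0.18 and 0.090, and Abcg1 between -0.00071 and 0.51. The ratios of Srebf2, Scap, Insig1, Acat2, Fdps, Fdft1, Tm7sf2, Ebp, Mylip, Stard4, Abca1 and Nr1h2 moved by over 1.5 times without 1 of the replicates and kept their sign. The causes of these changes were not tested.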
